A study of Mus musculus with 8 samples.

Results

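The genes described here are 10 serpins of mouse chromosome 12, namely Serpina1a to Serpina1e, Serpina3c, Serpina3k, Serpina3m, Serpina3n and Serpina6. They were taken by symbol from a table of 35638 genes, each symbol occurring once, and all 10 passed the minimum for testing. RNA was sequenced from frozen liver at postnatal day 90, in mice of a C57/B6 and 129 mix. In the WT group (4 samples) the genotype was Arid1a Fl/Fl, with both Arid1a alleles flanked by loxP sites, and in the KO group (4 samples) it was Arid1a Fl/Fl; Alb-cre. The floxed alleles are thus common to all 8 samples, and Alb-cre drives Cre recombinase from the albumin promoter, which is active in hepatocytes and in the precursors they share with bile duct cells. Liver cells of other origin, such as macrophages and endothelium, are not its target. Every KO sample carries Alb-cre and no WT sample does, so effects of the transgene itself cannot be told apart from those of the deletion. Values are FPKM, a fragment count divided by gene length and by the size of the library, and values of a gene are given in the order of libraries 1 to 4 of each group. The series title is about fatty liver disease, and the comparison asks how loss of Arid1a, which encodes part of the SWI/SNF chromatin remodeller, alters liver transcripts.

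Serpins are protease inhibitors that work once. A flexible reactive loop is offered as bait, the protease cuts it, and the serpin snaps shut with the enzyme trapped as a covalent complex. The Serpina1 genes encode mouse forms of alpha-1 antitrypsin, made by hepatocytes and secreted to plasma, where the human protein restrains neutrophil elastase. The Serpina3 genes are the mouse counterparts of human antichymotrypsin, a plasma protein of the acute phase response, and have expanded in rodents. Serpina6 encodes corticosteroid-binding globulin, a serpin that carries corticosterone in blood in place of inhibiting a protease.

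The 5 Serpina1 copies were close in their promoters. Of the 10 genes, 7 matched a RefSeq table of promoter windows on GRCm38.p6 that run from 250 bases before to 50 after the listed start. A stretch of 86 bases before the listed start is shown to let the copies be compared, and it lines up without a gap in all 5. Capitals mark the 10 bases that are not the same in all of them, and the stretch ends 1 to 63 bases before the listed start. All are given 5′ to 3′ on the minus strand.
Serpina1a, chr12:103863625-103863710: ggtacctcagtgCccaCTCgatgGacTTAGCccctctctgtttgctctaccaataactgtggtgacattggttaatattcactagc
Serpina1b, chr12:103738200-103738285: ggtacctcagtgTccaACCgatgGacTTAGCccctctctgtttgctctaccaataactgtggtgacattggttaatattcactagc
Serpina1c, chr12:103904962-103905047: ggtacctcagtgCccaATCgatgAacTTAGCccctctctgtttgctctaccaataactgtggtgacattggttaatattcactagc
Serpina1d, chr12:103773634-103773719: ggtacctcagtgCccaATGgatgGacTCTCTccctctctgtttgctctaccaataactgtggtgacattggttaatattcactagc
Serpina1e, chr12:103956960-103957045: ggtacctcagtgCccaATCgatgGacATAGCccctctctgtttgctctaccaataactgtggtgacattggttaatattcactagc

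Short motifs were searched on both strands of the windows and of 32851 promoter windows of the same length. The letters TGTTCT, a part of the glucocorticoid receptor site, occurred in 7 of 7 and in 19.0% of all windows. The windows of Serpina1a to Serpina1e are alike in sequence, so their matches are not independent of each other, and the counts cannot be read as an excess. The letters TTGCNNAA, a form of the C/EBP site, occurred in Serpina1a, Serpina1b, Serpina1d and Serpina1e and in 10.8% of all windows. Counted as bases before the listed start, the match lay at 161 in Serpina1b, 149 in Serpina1d and 211 in Serpina1e. In Serpina1a it lay at -24, which is after the start and a different place. TATAAA occurred in Serpina3c and in 13.6% of windows. TTCNNNGAA, a STAT site, occurred in 0 of 7 and in 8.30% of windows. A match describes letters in the window only.

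The copies also differ in the reactive loop, the part that selects the protease. The coding bases from the hinge of the loop to the conserved stretch behind it, codons 363 to 389 of 413, are shown for the 5 Serpina1 copies from GENCODE M21 transcripts of GRCm38. Capitals mark bases that are not the same in all copies.
Serpina1a loop: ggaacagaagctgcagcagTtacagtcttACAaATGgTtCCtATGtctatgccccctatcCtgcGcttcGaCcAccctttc
Serpina1b loop: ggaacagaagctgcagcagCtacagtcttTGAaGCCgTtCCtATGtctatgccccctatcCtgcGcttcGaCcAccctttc
Serpina1c loop: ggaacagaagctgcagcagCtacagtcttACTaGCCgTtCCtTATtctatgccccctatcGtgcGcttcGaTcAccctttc
Serpina1d loop: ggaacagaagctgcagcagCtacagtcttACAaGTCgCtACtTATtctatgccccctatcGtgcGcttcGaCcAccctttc
Serpina1e loop: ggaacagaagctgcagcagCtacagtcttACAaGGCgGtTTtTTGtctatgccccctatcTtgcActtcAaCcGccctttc

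In the loop 18 of 81 bases varied (22.2%), against 68 of the other 1158 coding bases (5.87%). The Serpina3 genes differed in the length of the loop as well. Their stretches ran over 27 codons in Serpina3c, 28 in Serpina3k and 30 in Serpina3m and Serpina3n, and are shown with the part between the hinge and the conserved end in capitals.
Serpina3c loop: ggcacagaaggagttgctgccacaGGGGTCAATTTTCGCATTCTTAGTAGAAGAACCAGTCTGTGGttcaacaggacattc
Serpina3k loop: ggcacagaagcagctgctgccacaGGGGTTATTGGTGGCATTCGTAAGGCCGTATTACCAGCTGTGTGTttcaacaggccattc
Serpina3m loop: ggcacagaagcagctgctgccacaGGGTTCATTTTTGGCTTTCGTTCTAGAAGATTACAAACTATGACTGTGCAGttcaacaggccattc
Serpina3n loop: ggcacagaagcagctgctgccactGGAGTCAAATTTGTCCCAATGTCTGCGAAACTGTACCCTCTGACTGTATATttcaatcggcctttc

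These likenesses bear on how far single copies could be measured. Coding identity was 96.3 to 98.6% within Serpina1 (10 pairs), 82.7 to 91.3% within Serpina3 (6 pairs), 61.5 to 63.4% between the 2 groups and 58.7 to 61.5% between Serpina6 and the others. Serpina1c was the least distinct: 20.7% of the stretches of 50 bases in its transcripts occurred in no other gene, and 69.4% occurred also in Serpina1a. The share found in no other gene was 42.4% for Serpina1a, 49.1% for Serpina1d, 65.4% for Serpina1e and 70.6% for Serpina1b. It was 80.9% for Serpina3m, 86.0% for Serpina3k, 93.1% for Serpina3n, 95.8% for Serpina3c and 100% for Serpina6. How reads that fit several copies were assigned is not given in the sources used here, so values of single Serpina1 copies are uncertain, and sums over copies are given beside them. The annotated Serpina1b gene (103728156 to 103830373) spans Serpina1d (103763594 to 103773592), and the annotated Serpina3m gene (104338486 to 104394257) shares its start with Serpina3k (104338486 to 104346144), which adds to this uncertainty. The remaining genes lie at 103646630 to 103657212 (Serpina6), 103853589 to 103863562 (Serpina1a), 103894926 to 103904887 (Serpina1c), 103946931 to 103958975 (Serpina1e), 104146382 to 104153870 (Serpina3c) and 104406729 to 104414329 (Serpina3n), all on GRCm38.

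Depth, estimated from the steps between low values, was about 12400000 to 13500000 reads in WT and 13700000 to 15100000 in KO. Counting error was small beside the spread between libraries for genes this abundant, with an estimated 230 reads behind the lowest Serpina3c value and 1200 or more behind the lowest of each other member. Arid1a, the targeted gene, held 3.998 to 8.38 FPKM over WT and 2.59 to 3.46 FPKM over KO, without overlap (log2 change -0.67, limma adjusted p = 0.316). Hepatocyte markers were abundant in all libraries, with a summed level of 27303 to 36945 FPKM in WT and 30630 to 43524 FPKM in KO over 7 genes. WT 3 held the highest Serpina3c and Serpina3k values, and KO 1 the lowest value of each Serpina1 copy. The outlier check described near the end flagged neither library for any member. WT 4 had the most genes over 2 times the value of every other library (176 of 11266, against 37 to 73 in the others). No label says that the samples were separate animals, so the spread behind each p-value may be partly or wholly technical.

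None of the 10 genes passed the test of KO against WT over all genes. With limma and Benjamini-Hochberg adjustment 0 of 10 passed an adjusted p of 0.05, where 0.763% of all 11266 genes tested did (0.408% higher and 0.355% lower). At an unadjusted p under 0.05 it was 1 of 10, Serpina3n, against 9.81% of all genes. The groups overlapped in 10 of 10 genes, whereas 6.23% of all genes had groups that did not overlap (3.05% with KO above WT and 3.18% with KO below). The median change of the 10 was 0.09 on the log2(FPKM + 1) scale, with 6 positive and 4 negative. That of all genes tested was -0.03, with 5129 positive and 6137 negative. In whole tissue, fewer cells of a type and less RNA per cell cannot be told apart. Exact two-sided permutation over 70 labelled splits gave p between 0.0857 (Serpina3n) and 0.971 (Serpina1d), where the smallest possible is 0.0286. The intervals below state what size of change these 8 libraries leave possible, since a p above the threshold does not show that levels were equal.

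**Figure D1:**
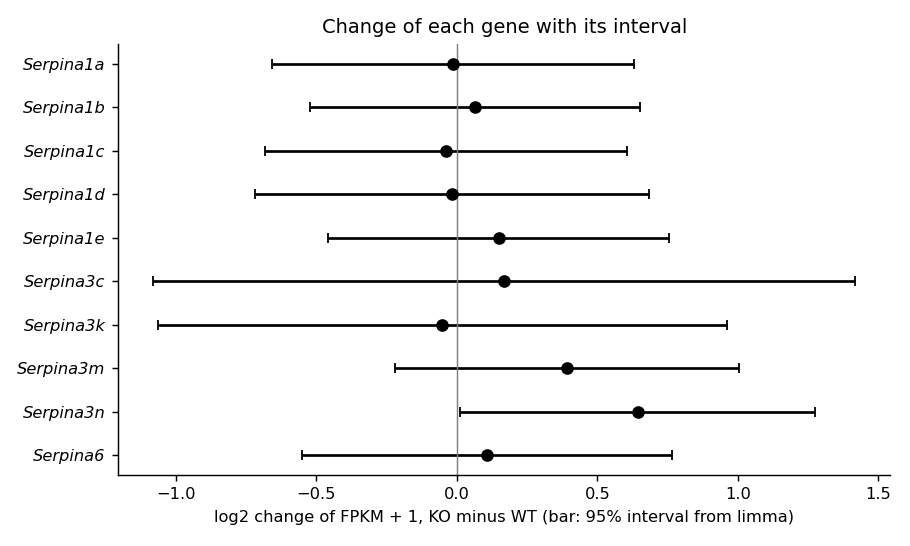
The log2 change of FPKM + 1 in KO against WT is plotted for each of the 10 genes, with the 95% interval from limma over 4 and 4 libraries. The interval of Serpina3n (0.01 to 1.28) lies just above 0 before adjustment over all genes, the other 9 include 0, and those of Serpina3c and Serpina3k are the widest.

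The Serpina1 genes were among the 80 most abundant genes of the table, and all 5 copies were lowest in KO 1 and next lowest in WT 2. The median ratio factor, a measure of the general level of a library over all genes, was also lowest in KO 1 (0.881) and WT 2 (0.945). It was 1.14 in KO 4, and the values given here are not divided by it, so their order may partly follow this general level. The 2 orders were not the same. WT 4 had the highest factor (1.15) and WT 1 a factor of 0.965, yet the 5 copies summed to 5461 FPKM in WT 4 and 5897 FPKM in WT 1. Serpina1b, the most abundant copy, was at 1538, 1020.1, 1279.97 and 1479 FPKM in the WT libraries, compared with 850.2, 1559, 1416 and 1886 FPKM in the KO libraries. KO thus held both the lowest and the highest value, and the log2 change was 0.06 (95% interval -0.52 to 0.65, limma adjusted p = 0.977). Serpina1c was at 1344, 795, 1053 and 1244 FPKM in the WT libraries, compared with 626, 1303, 1061 and 1449 FPKM in the KO libraries. Its change was -0.04 (-0.68 to 0.60, limma adjusted p = 0.987), in groups that cover each other.

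Serpina1a, from which Serpina1c is hardest to separate, was at 1187, 783, 1036 and 1239.6 FPKM in the WT libraries, compared with 606, 1289, 1009 and 1456 FPKM in the KO libraries. It followed Serpina1c closely in level, with a ratio of 0.883 to 1.01 between them. Serpina1d was at 1110.1, 479, 653 and 767 FPKM in the WT libraries, compared with 427, 873, 764 and 889 FPKM in the KO libraries. WT 1 held the highest Serpina1d value, unlike any other copy, for which KO 4 was highest. Serpina1e, the least abundant copy, was at 718, 492, 654 and 731 FPKM in the WT libraries, compared with 414, 792, 852 and 914 FPKM in the KO libraries. In 3 of 4 KO libraries it lay above every WT library, and in KO 1 below all of them. The changes of Serpina1a, Serpina1d and Serpina1e were -0.01, -0.02 and 0.15 (limma adjusted p = 0.997, 0.996 and 0.938), with intervals inside -0.72 to 0.76.

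**Figure D2:**
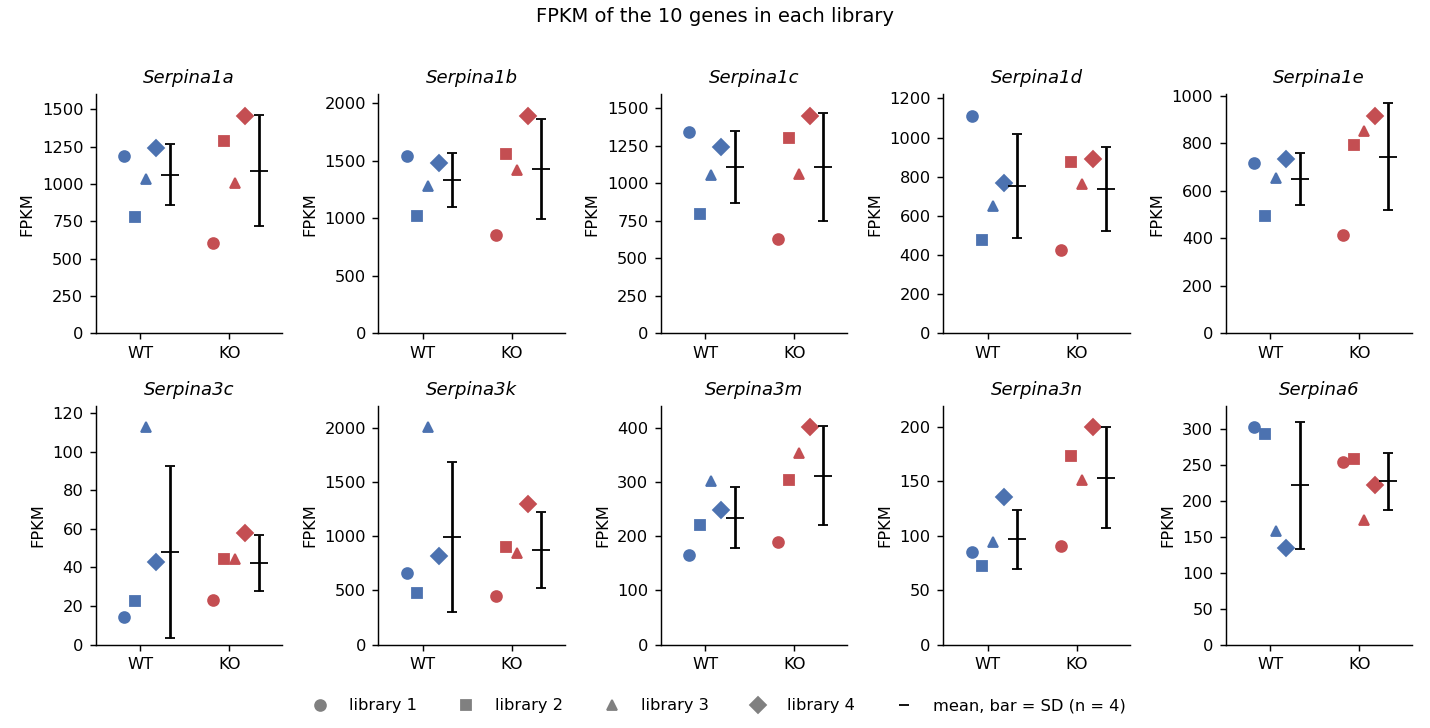
FPKM is plotted for the 10 genes, with 1 panel a gene, WT libraries in blue, KO libraries in red, a symbol for each library number and the mean with its SD (n = 4) in black. KO 1 (red circle) is the lowest library of each Serpina1 panel, WT 3 (blue triangle) stands high in Serpina3c and Serpina3k, and the groups overlap in every panel.

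A sum over the 5 copies is given because reads may have been split among them. It still depends in part on that split, since FPKM divides by the length of each gene, and it leaves out Gm8893 and B430119L08Rik, which share stretches with the copies. The sum came to 5897, 3568, 4676 and 5461 FPKM in the WT libraries, compared with 2923, 5816, 5102 and 6594 FPKM in the KO libraries. The WT mean was 4901 ± 1022 FPKM and the KO mean 5109 ± 1579 FPKM (SD, n = 4 each), a difference smaller than the SD of either group. The sum in KO 1 was low also beside albumin. Per 100 FPKM of Alb it was 12.6 FPKM in KO 1 and 17.7 to 25.1 FPKM in the other 7 libraries, while Alb itself was at 23165 FPKM in KO 1, within the WT range of 20104 to 27121 FPKM. The sum varied 2.26-fold over the 8 libraries, against 1.57-fold for Alb, 1.62-fold for Apoa1, the main apolipoprotein of HDL, and 1.82-fold for Ttr, which encodes transthyretin.

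The make-up of the Serpina1 sum varied far less than its size. Serpina1b contributed 26.1 to 29.1% of it over the 8 libraries, Serpina1a 19.8 to 22.7% and Serpina1c 20.8 to 22.8%. Serpina1e contributed 12.2 to 16.7%, with the highest share in KO 3. Serpina1d contributed 13.4 to 15.02% in 7 libraries and 18.8% in WT 1. In WT 1 Serpina1d was 1.55 times Serpina1e, where the ratio was 0.896 to 1.103 elsewhere. How reads that fit several copies were assigned is not given in the sources used here. The nearly constant shares may partly come from that assignment, which was not tested.

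**Figure D3:**
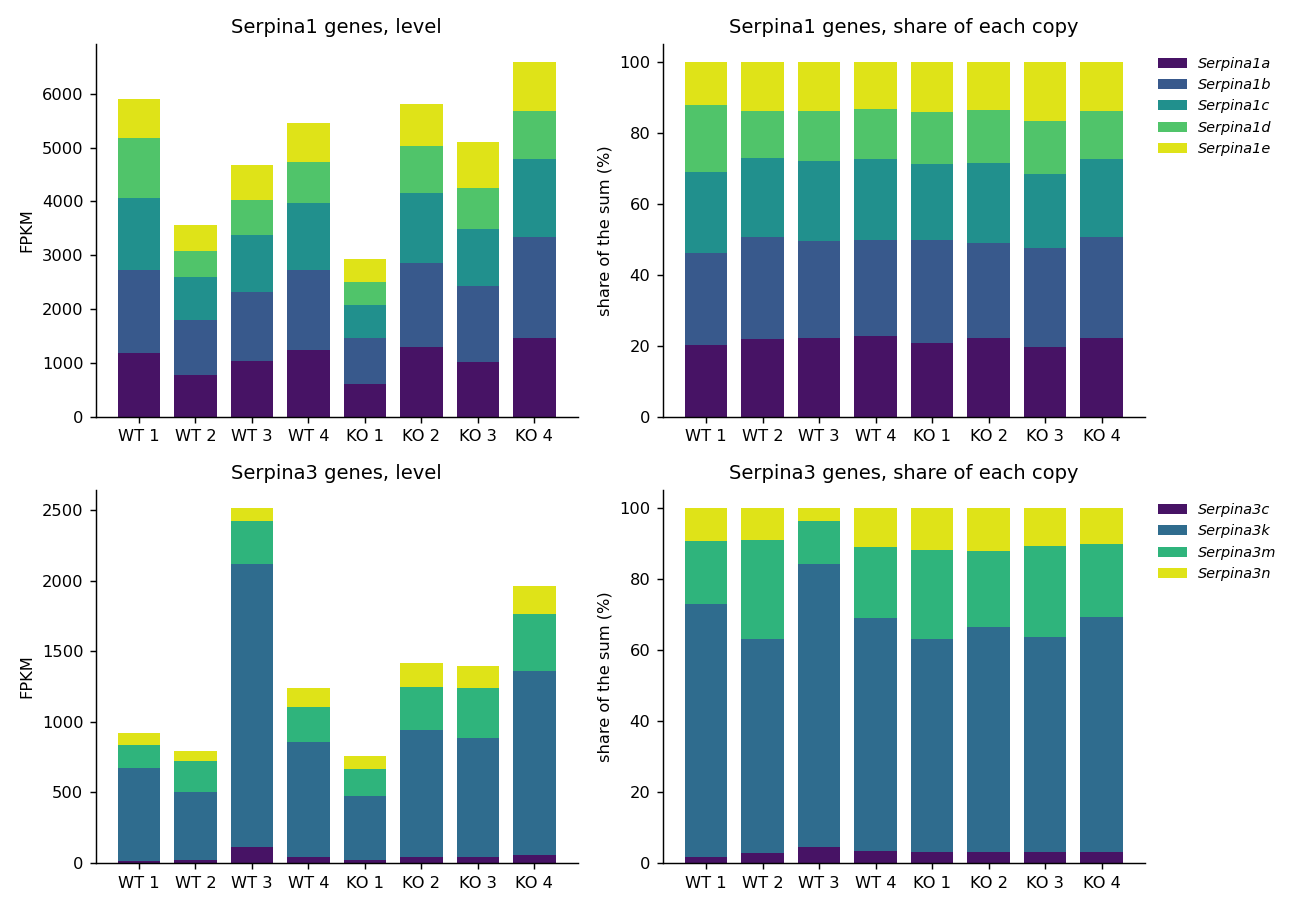
Stacked bars give the FPKM of the Serpina1 copies and of the 4 Serpina3 genes in each library (left) and the share of each gene in its sum in percent (right). The Serpina1 bars differ in height, from 2923 FPKM in KO 1 to 6594 FPKM in KO 4, with nearly constant bands, whereas Serpina3k fills 79.8% of the Serpina3 bar of WT 3.

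Among the Serpina3 genes, Serpina3k made up most of the RNA, and it was highest in 1 WT library. Serpina3k, which encodes a plasma inhibitor also called contrapsin, was at 657, 479.6, 2007 and 814 FPKM in the WT libraries, compared with 453, 898, 843 and 1301 FPKM in the KO libraries. WT 3 lay 1.54 times above the next library (KO 4), and the other 3 WT libraries lay within the KO range. The change was -0.05 with an SE of 0.45 (-1.07 to 0.96, limma adjusted p = 0.9899), so its sign was undetermined. Without WT 3 it was 0.36 (limma adjusted p = 0.887), and without KO 1 it was 0.23 (limma adjusted p = 0.956). With WT 3 and KO 1 both left out, an alternative added after seeing the values, it was 0.65 (limma adjusted p = 0.567), so the sign of the Serpina3k change rests on those libraries.

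Serpina3c, the least abundant of the 10 genes, had the widest spread. It was at 14.5, 22.5, 112.7 and 42.7 FPKM in the WT libraries, compared with 22.9, 44.5, 44.2 and 57.8 FPKM in the KO libraries. The highest and the lowest value were both in WT, with WT 3 1.95 times above the next library. The change was 0.17 (-1.08 to 1.42, limma adjusted p = 0.968), and it was 0.71 without WT 3 and -0.25 without WT 1. Serpina3m was at 166, 221, 302 and 249 FPKM in the WT libraries, compared with 189, 305, 355 and 402 FPKM in the KO libraries. In 3 of 4 KO libraries it was above every WT library, and KO 1 was below all WT libraries except WT 1. Its change of 0.39 (-0.22 to 1.003) did not pass (limma adjusted p = 0.754).

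Serpina3n had the largest change of the 10 and the only unadjusted p under 0.05. It encodes a secreted inhibitor that is known to increase in inflammation and, in brain, in reactive astrocytes. It was at 84.7, 72.4, 93.9 and 135 FPKM in the WT libraries, compared with 90.3, 173, 151 and 199.8 FPKM in the KO libraries. KO 2, KO 3 and KO 4 lay above every WT library, while KO 1 lay below WT 3 and WT 4. The WT mean was 96.6 ± 27.3 FPKM and the KO mean 154 ± 46.7 FPKM (SD, n = 4 each). The log2 change was 0.64 with an SE of 0.28 and a 95% interval of 0.01 to 1.28 (limma adjusted p = 0.492). Over 19 alternatives the change ran from 0.50 to 0.88 and the limma adjusted p from 0.2496 to 0.711, so it stayed positive and was called in 0 of them.

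In the same libraries, markers of several but not all other cell types were higher in KO than in WT, and their part in the Serpina3n values was not tested. All 11 tested macrophage markers of 12 had a positive change, 0 passed the adjusted threshold (11 at an unadjusted p under 0.05 by limma) and 10 did not overlap, with a summed level of 7.25 to 16.6 FPKM in WT and 23.4 to 168 FPKM in KO. By library, the macrophage sum was at 7.25, 9.07, 13.7 and 16.6 FPKM in WT, compared with 95.8, 23.4, 168 and 134.6 FPKM in KO. Within the groups, it was highest in WT 4 and KO 3, and Serpina3n was highest in WT 4 and KO 4. The lowest libraries were WT 1 and KO 2 for the macrophage sum, and WT 2 and KO 1 for Serpina3n. Endothelial markers summed to 1.80 to 5.01 FPKM in WT and 6.08 to 17.6 FPKM in KO, and stellate cell markers to 1.93 to 6.09 and 9.18 to 22.5 FPKM. Lymphocyte markers were near 0, at 0.0726 to 0.295 and 0.340 to 1.34 FPKM in sum. The summed level of 8 neutrophil markers was 0 to 0.196 FPKM in WT and 0.220 to 1.16 FPKM in KO, with Ltf at 0 in all libraries. Cholangiocyte sums overlapped between the groups (0.363 to 1.02 FPKM in WT and 0.612 to 6.82 FPKM in KO). Pancreas sums also overlapped, at 2.48 to 8.81 FPKM in WT and 2.18 to 7.87 FPKM in KO.

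The Serpina3 sum over all 14 listed genes and pseudogenes was at 929, 801, 2527 and 1251 FPKM in the WT libraries, compared with 763, 1435, 1407 and 1981 FPKM in the KO libraries, and the 4 members held 99.0 to 99.6% of it. The WT mean was 1377 ± 789.9 FPKM and the KO mean 1396 ± 498 FPKM (SD, n = 4 each). Their ratio, KO over WT, was 1.01, became 1.41 without WT 3 and 1.62 with WT 3 and KO 1 both left out. Within the sum of the 4 members, Serpina3n held 3.73% in WT 3 and 9.10 to 12.2% in the other 7 libraries, and Serpina3k held 79.8% in WT 3 and 59.9 to 71.3% elsewhere. Serpina3k was 21.4 times Serpina3n in WT 3, compared with 5.01 to 7.76 times in the others. The shift of WT 3 was thus unequal among neighbours that share 82.7% or more of their coding bases.

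High values in WT 3 were seen in several Serpina genes of the chromosome and not in others between them. The annotation places 28 Serpina genes and pseudogenes of the table on chromosome 12, of which 27 were above 0 in at least 1 library. WT 3 was the highest library in 10 of them, KO 4 in 12, KO 3 and WT 1 in 2 each, and KO 2 in 1. The 10 were Serpina11, Serpina9, Serpina12, Serpina4-ps1, Serpina5 and Serpina3a, which are 6 neighbours in order of position, and further on Serpina3c, Serpina3h, Serpina3i and Serpina3k. The 8 genes that lie among or behind these, up to Serpina3n, and were not highest in WT 3 were Serpina3b, Serpina3d-ps, Serpina3e-ps, Serpina3f, Serpina3g, Serpina3j, Serpina3m and Serpina3l-ps. Serpina3e-ps, for example, held 5.87 FPKM in WT 3, below the 14.5 FPKM of KO 4, and Serpina3f in WT 3 was 0.516 times the median of the other libraries. None of the Serpina1 genes, Serpina6 or Serpina3n was highest in WT 3. Of the 6 neighbours, Serpina9, Serpina12, Serpina5 and Serpina3a were at 0.187 to 1.03 FPKM in WT 3, all low levels.

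Serpina4-ps1, an unprocessed pseudogene (104080649 to 104086724), was the most extreme of them. It was at 0.947, 0.957, 63.0 and 2.01 FPKM in the WT libraries, compared with 0.276, 0, 0.0112 and 0.365 FPKM in the KO libraries. KO lay below WT without overlap (log2 change -2.18, limma adjusted p = 0.512), and WT 3 was 31.4 times the next library, the largest such ratio among all 11266 genes tested in WT 3. Low genes with WT 3 highest were Serpina3i (1.45 FPKM in WT 3 and 0 to 0.255 FPKM elsewhere) and Serpina5 (0.749 FPKM in WT 3 and 0 to 0.125 FPKM elsewhere). WT 3 lay 1.003 times above the next library in Serpina11 and 1.001 times in Serpina3h, so the order in those genes is within the spread. The FPKM of WT 3 summed to 455456, below 560525 to 621928 in the others, and its median ratio factor over all genes was 1.01, within the 0.881 to 1.15 of the others.

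**Figure D4:**
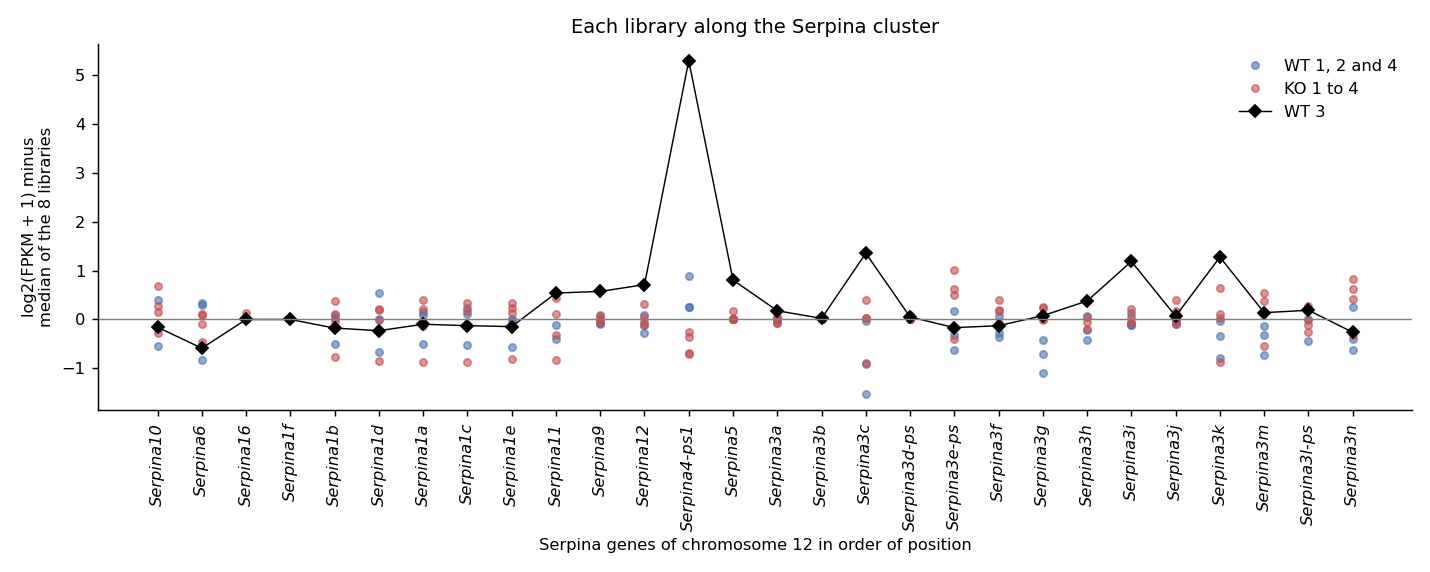
For the 28 Serpina genes of chromosome 12 in order of position, log2(FPKM + 1) minus the median of the 8 libraries is plotted, with WT 3 as black diamonds joined by a line, the other WT libraries in blue and KO in red. WT 3 is highest from Serpina11 to Serpina3a and again at Serpina3c, Serpina3i and Serpina3k, with a peak at Serpina4-ps1 (63.0 FPKM), and lies among the others over the Serpina1 genes.

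Serpina6, the corticosteroid carrier, followed neither cluster. It was at 302, 293, 158 and 134 FPKM in the WT libraries, compared with 255, 258, 173 and 222 FPKM in the KO libraries. WT libraries formed a high and a low pair, with all KO values between the extremes of WT. The WT mean was 222 ± 88.1 FPKM and the KO mean 227 ± 39.5 FPKM (SD, n = 4 each), and the change was 0.11 (-0.55 to 0.77, limma adjusted p = 0.960). It was the only one of the 10 with a higher level in KO 1 than in KO 3 and KO 4, and one of 2 that were highest in WT 1, with Serpina1d.

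By mean level over all libraries the order was Serpina1b (1378 FPKM), Serpina1c (1109 FPKM), Serpina1a (1076 FPKM), Serpina3k (932 FPKM), Serpina1d (745 FPKM), Serpina1e (696 FPKM), Serpina3m (274 FPKM), Serpina6 (224 FPKM), Serpina3n (125 FPKM) and Serpina3c (45.2 FPKM). Neighbours in this order from Serpina1b to Serpina1e lay within the larger SD of the pair in each group, as did Serpina3m and Serpina6. Serpina1e and Serpina3m, Serpina6 and Serpina3n, and Serpina3n and Serpina3c lay further apart than that in both groups. Serpina1b ranked 47th and Serpina3c 810th among all genes of the table. Together the 10 genes held 0.683% (KO 1) to 1.61% (WT 3) of all FPKM. The total over all genes was lowest in WT 3, at 455456 FPKM, which raises its share. In summed FPKM of the 10 genes KO 4 was highest (8777), followed by KO 2 (7495) and WT 3 (7350).

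Other genes were searched for the same pattern across the 8 libraries, as the root mean square difference of centred log2(FPKM + 1) among 2593 protein-coding genes with a mean of at least 10 FPKM. The closest to Serpina3n were Hp, the acute phase gene of haptoglobin (difference 0.15), Steap4, a metalloreductase gene (0.18), and F13b, a coagulation factor subunit gene (0.20), where Serpina3n itself had an SD of 0.53. Hp was at 451, 528, 510 and 914 FPKM in the WT libraries, compared with 512, 1078, 871 and 1119 FPKM in the KO libraries, high in the same libraries as Serpina3n. For the Serpina1 sum (SD 0.40) they were Ndufb11, a respiratory chain subunit gene (0.11), Gclm, of glutathione synthesis (0.16), and Smlr1 (0.17). For Serpina6 (SD 0.43) they were Rgs16, a regulator of G-protein signalling (0.19), Prodh2 (0.24) and Nbr1 (0.25). For Serpina3k (SD 0.71) they were Gng12 (0.27), Magt1 (0.34) and Bet1 (0.36), with larger differences in a gene of larger spread. These are descriptions of 8 libraries, chosen as the smallest of many.

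Among other members of the family, 6 of 19 clade A serpins in the table passed the minimum for testing and 0 of 6 passed the threshold by limma (1 at an unadjusted p under 0.05; 4 positive, median 0.49). Serpina3g, known as an inhibitor of cathepsins in immune cells, had the smallest p, with 0.254, 0.636, 1.81 and 0.997 FPKM in the WT libraries against 1.65, 1.68, 2.17 and 2.15 FPKM in the KO libraries (log2 change 0.66, limma adjusted p = 0.395). WT 3 overlapped the KO group. Of 14 serpins of other clades 6 were tested and 0 passed by limma (0 at an unadjusted p under 0.05; 5 positive, median 0.17). Serpinc1, the antithrombin gene, had the smallest p, with a WT mean of 117.6 ± 18.5 FPKM against a KO mean of 144 ± 33.0 FPKM (SD, n = 4 each; limma adjusted p = 0.778). Serpina1f was listed at 0 in all libraries.

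Proteases that plasma serpins can meet were mostly below the minimum for testing. Of 22 listed, 16 were in the table, 6 were tested and 0 passed by limma (0 at an unadjusted p under 0.05; 4 positive, median 0.09). Elane, neutrophil elastase, was listed at 0 in 7 libraries and at 0.156 FPKM in KO 1. Proc, the protein C gene, had the smallest p, with a WT mean of 123 ± 7.01 FPKM against a KO mean of 105 ± 20.1 FPKM (SD, n = 4 each; limma adjusted p = 0.773). Of 5 receptors and partners of serpin clearance 4 were tested and 0 passed (0 at an unadjusted p under 0.05), with Asgr1, an asialoglycoprotein receptor subunit gene, nearest (log2 change 0.23, limma adjusted p = 0.8295).

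Of 18 transcription factors known at serpin promoters or in hepatocytes, 17 were tested and 0 passed by limma (2 at an unadjusted p under 0.05; 4 positive and 13 negative, median -0.09). Prox1, a hepatocyte factor, had the smallest p and did not overlap, with 26.9 to 37.1 FPKM over WT against 12.1 to 25.3 FPKM over KO (log2 change -0.68, limma adjusted p = 0.349). Of 26 genes of folding and export in the secretory pathway 0 passed by limma (0 at an unadjusted p under 0.05; 6 positive and 20 negative, median -0.11), with Syvn1, a ubiquitin ligase of the endoplasmic reticulum, nearest (limma adjusted p = 0.667). Over all genes tested, 5129 changes were positive and 6137 negative.

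Signals known to act on these serpins were read from 3 further lists. Of 26 tested acute phase and interleukin-6 pathway genes 0 passed by limma (4 at an unadjusted p under 0.05), with 14 positive and 12 negative (median 0.10). Orm3, an orosomucoid gene with close copies, had the smallest p, with 12.4, 17.8, 14.04 and 9.81 FPKM in the WT libraries against 1.41, 1.87, 3.77 and 10.7 FPKM in the KO libraries (log2 change -1.68, limma adjusted p = 0.164), and without KO 4 it passed (-2.15, limma adjusted p = 0.0266). The other 3 genes at an unadjusted p under 0.05 were higher in KO, and are named after their values were seen. Hpx, the haemopexin gene, ranged from 638 to 936 FPKM over WT and from 1003 to 1917 FPKM over KO without overlap (log2 change 0.86, limma adjusted p = 0.165). Orm2, a close copy of Orm3 with a change of opposite sign, ranged from 15.2 to 25.5 FPKM over WT and from 31.4 to 429 FPKM over KO without overlap (2.32, limma adjusted p = 0.186). Saa2, a serum amyloid gene, ranged from 1.82 to 24.1 FPKM over WT and from 13.1 to 78.3 FPKM over KO (2.03, limma adjusted p = 0.315). Of 14 glucocorticoid receptor genes and targets 0 passed (2 at an unadjusted p under 0.05; 9 positive, median 0.15), with Dusp1, a phosphatase gene, nearest with a WT mean of 40.9 ± 13.9 FPKM against a KO mean of 20.2 ± 9.05 FPKM (SD, n = 4 each; limma adjusted p = 0.332). The other gene at an unadjusted p under 0.05, Fkbp5, changed in the opposite direction. Its WT mean was 11.7 ± 2.29 FPKM and its KO mean 21.2 ± 6.72 FPKM (log2 change 0.76, limma adjusted p = 0.369). Of 13 tested growth hormone receptor genes and targets 1 passed (4 at an unadjusted p under 0.05) and 9 were negative (median -0.55). The gene that passed was Mup20, a urinary pheromone-binding protein, which rose from a mean of 1.65 ± 0.324 FPKM in WT to 10.4 ± 2.604 FPKM in KO (SD, n = 4 each), with a log2 change of 2.08 (limma adjusted p = 0.00295). Mup20 has close copies, so its value is uncertain to that extent. The other 3 at an unadjusted p under 0.05 had negative changes, namely Cyp7b1, an oxysterol hydroxylase gene (-0.80, limma adjusted p = 0.389, no overlap), Ghr, the growth hormone receptor gene (-0.55, limma adjusted p = 0.398), and Igfals, of the circulating IGF complex (-0.82, limma adjusted p = 0.389). Of 6 tested hormone carriers of blood 0 passed (1 at an unadjusted p under 0.05; 5 positive, median 0.24), with Rbp4, the retinol carrier, nearest with a WT mean of 1127 ± 127 FPKM against a KO mean of 1573 ± 202 FPKM (limma adjusted p = 0.368).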

How the data were processed

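RNA came from 8 frozen liver samples (Trizol, then Qiagen miRNeasy columns) and was sequenced from Nugen libraries, per the labels' protocols. The authors deposited FPKM values, 1 column a sample. The submitters' processing notes name TopHat, edgeR and the build mm10. Versions, annotation, strand and the handling of reads that match several genes: not given in the sources used here. Values were analysed as log2(FPKM + 1) for 11266 genes with a mean of at least 1 FPKM, with limma 3.58.1 in R 4.3.3 (intensity trend, two-sided, Benjamini-Hochberg adjustment, threshold 0.05). The pseudocount understates changes of low genes. Depth was estimated from low values among 12059 genes with a single transcript, 2423 to 2748 values a library. Of these low values 53.0 to 57.4% lay within 0.1 of a whole read, so depths are approximate. Coordinates and coding sequences came from GENCODE M21 (GRCm38, the build of mm10), and promoters from RefSeq on GRCm38.p6. Sequences were handled with Biopython 1.88 and figures drawn with matplotlib 3.10.9. Sharing of sequence was counted over stretches of 50 bases of all annotated transcripts of a gene. In ratios to the highest other library, values below 0.1 FPKM were set to 0.1. The fit was tested on simulated data. Genes named were all 10 members and, from each list, up to 4 genes past the threshold or the one with the smallest p. Hp, Elane, the cluster neighbours and further list genes at an unadjusted p under 0.05 were chosen as background or after their values were seen. The promoter stretch was placed around a motif that is not reported here. The members and lists were chosen with earlier results of these data known.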

Additional observations from a re-analysis of the deposited data

Results flagged for a closer look

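Each value was set against the other 3 libraries of its group for 54 groups of 4, of which 3 held a library far from the rest. Chance gives about 5% of such groups. No value of a member, of either sum or of a share was flagged in WT 3 or KO 1. Serpina4-ps1 was at 63.0 FPKM in WT 3, with the other WT libraries at 0.947 to 2.01 FPKM. The share of Serpina1d in the Serpina1 sum was 18.8% in WT 1, with the other WT libraries at 13.4 to 14.0%. Serpina7, the gene of thyroxine-binding globulin on the X chromosome, reached 15.5 FPKM in WT 4, where the other WT libraries held 2.71 to 4.15 FPKM. In KO it held 6.76 to 16.4 FPKM (log2 change 1.002, limma adjusted p = 0.534).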

How the results depend on the processing

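In all 19 alternatives 0 of the 10 serpins were called. Over all genes 46 were called higher and 40 lower. The number higher was 27 with a pseudocount of 5 FPKM, 14 with a minimum of 5 FPKM, 16 with the replicate number as a block, 18 with WT 3 and KO 1 both left out (added after seeing the data), and 20 (without WT 1 or KO 4) to 92 (without KO 2) when 1 library was left out. The number lower was 26 with no filter, 13 with a minimum of 5 FPKM, 8 with the block, 12 with WT 3 and KO 1 both left out, and 14 (without KO 3) to 44 (without KO 2) when 1 library was left out. The replicate numbers were not taken as pairs: deviations of same-numbered libraries correlated at 0.0964, -0.0668, 0.0151 and 0.250, and the block changed no call of a named gene (Mup20 limma adjusted p = 0.0469). Log2 changes near 0 changed sign. With median ratio scaling Serpina1a was at 0.022 and Serpina1d at 0.018. With array weights Serpina1a was at 0.032, Serpina1d at 0.0046 and Serpina6 at -0.069. With equal sums Serpina1b was at -0.050 and Serpina6 at -0.0058, and with quantile normalization Serpina1b was at -0.14 and Serpina1e at -0.010. With WT 3 and KO 1 both left out Serpina1a was at 0.24, Serpina1c at 0.20, Serpina1d at 0.18, Serpina3k at 0.65 and Serpina6 at -0.086. Leaving out 1 library gave -0.18 to 0.24 for Serpina1a, -0.090 to 0.29 for Serpina1b, -0.19 to 0.21 for Serpina1c, -0.21 to 0.23 for Serpina1d, -0.25 to 0.71 for Serpina3c, -0.33 to 0.36 for Serpina3k and -0.10 to 0.29 for Serpina6. The cause of these sign changes was not tested. Serpina3m and Serpina3n stayed positive in all 19.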

Other observations

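A pair of further transcripts share sequence with the Serpina1 genes. Gm8893, an unprocessed pseudogene inside the annotated span of Serpina1b, was at 341 to 612 FPKM in WT and 297 to 685 FPKM in KO (log2 change 0.12, limma adjusted p = 0.957). B430119L08Rik, on the strand opposite to Serpina1c, was at 133 to 244 FPKM in WT and 111 to 260.2 FPKM in KO (log2 change -0.11, limma adjusted p = 0.966). Both were lowest in KO 1, as the Serpina1 copies were. Since the use of strand is not given in the sources used here, reads of B430119L08Rik and Serpina1c cannot be told apart.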
